A study of Danio rerio with 6 samples.

Results

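Kruppel-like factors (Klf) are zinc finger transcription factors, and 10 of their genes, klf2a, klf2b, klf3, klf4, klf6a, klf7b, klf9, klf11a, klf13 and klf17, were chosen by name for a description of their mRNA in endothelial cells (ECs) of the zebrafish tail. The table of 10232 genes used here holds 9 of them, and klf9, known as a glucocorticoid-induced gene, was not analysed here. RNA was sequenced from GFP+ cells sorted from dissected tails, which hold the caudal haematopoietic tissue (CHT), the site where haematopoietic stem and progenitor cells (HSPCs) expand. The embryos were 36 h post fertilisation (hpf), and about 5000 cells were sorted per sample. In 3 libraries the embryos were flk1:GFP;flk1:GAL4;UAS:DN-bmal1a (DN-bmal1a), and in 3 libraries they were flk1:GFP;UAS:DN-bmal1a (control). Both groups therefore carried the GFP reporter and the UAS transgene, and only the first carried GAL4, a yeast activator that switches on genes placed behind UAS. DN-Bmal1a lacks the part of the clock protein Bmal1a that activates transcription. The flk1 (kdrl) promoter that drives GAL4 and GFP is active in ECs throughout the embryo, including those that give rise to HSPCs. Since the controls lacked the driver, an effect of GAL4 itself and one of DN-Bmal1a cannot be told apart. The comparison asks whether Klf mRNA differed between GFP+ cells sorted from embryos with and without the dominant-negative protein.

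Klf proteins bind GC-rich and CACCC DNA sequences through a conserved group of zinc fingers, and their members differ outside that region in whether they activate or repress. Klf2 and Klf4 are best known in endothelium, where laminar blood flow induces them through a kinase cascade (MEKK3, MEK5 and ERK5) and transcription factors of the MEF2 family, while the Heg1-CCM junction complex restrains the same cascade. Zebrafish klf2a is widely used as a readout of blood flow, and klf6a has been described as a factor of the CHT niche that acts on HSPCs. Several of these genes, among them Klf2, Klf4 and Klf6, are also immediate early genes, which respond quickly to serum or stress in cultured cells.

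The libraries held between 26161915 and 55004237 reads over the listed genes, and values are given as CPM, read counts scaled by a library size that the authors had normalised. A single read was worth between 0.0178 and 0.0367 CPM. DN-bmal1a replicate 2 had the fewest reads, and no read in 17.2% of the listed genes, against 0.332% to 8.45% in the other 5 libraries. The gene used to make the transgene, listed under its older symbol arntl1a, had 42.9, 22.1 and 55.5 CPM in DN-bmal1a and 20.6, 16.8 and 3.28 CPM in the controls. All 3 DN-bmal1a libraries were above all 3 controls, as in 7% of all genes, and DN-bmal1a replicate 2 was close to control replicate 1. Markers of the sorted cell type were present in all libraries, and 14 of the 18 endothelial markers looked for were listed. Their summed level was lower in each DN-bmal1a library, with 6570, 4691 and 5370 CPM against 8657, 10729 and 10912 CPM in the controls. A lower sum was not particular to endothelial markers. The summed epidermis markers were also lower, at 3329, 2757 and 2652 CPM in DN-bmal1a and 3856, 3855 and 3839 CPM in the controls. Most of the epidermis sum came from krt8, whose groups overlapped. Every DN-bmal1a library was below every control in 8 of the 14 endothelial markers and in 3 of the 13 epidermis markers. The share over all genes was 10.7%. Sums of the muscle and of the myeloid markers overlapped between the groups. The 7 myeloid markers listed summed to 6411, 9828 and 7145 CPM in DN-bmal1a and 11376, 9305 and 6602 CPM in the controls. Most of that sum came from lyz. RNA of other cell types was thus present beside that of ECs, and the part of it in the Klf values was not tested. The sum of the erythroid markers went the other way, at 3032, 4470 and 4526 CPM in DN-bmal1a and 2398, 743 and 1635 CPM in the controls. Of the 13 erythroid markers listed, 10 had a fitted log2 fold change above 0 and 3 below. Among the lower was gata1a, at 0, 0 and 1.83 CPM in DN-bmal1a and 4.13, 5.84 and 8.89 CPM in the controls. In bulk RNA, fewer cells of a type and less RNA per cell cannot be told apart. The part of these shifts in the Klf values was not tested.

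None of the 9 Klf genes passed the threshold for a difference between the groups (limma on log2(CPM + 1), Benjamini-Hochberg adjusted p under 0.05 over all 10232 genes and a fold change of at least 2). That threshold was passed by 0.00977% of all genes. At an unadjusted limma p under 0.05 there were also 0 of the 9, where 11.2% of all genes lay. In 0 of the 9 did the DN-bmal1a and control libraries separate without overlap, as they did in 17.7% of all genes. edgeR's quasi-likelihood test, edgeR's exact test and DESeq2, run on the recovered reads, each called 0 of the 9 too, with 0 at an unadjusted p under 0.05. Over all genes, the quasi-likelihood test called 0%, the exact test 0.371% and DESeq2 1.83%. With so few genes, counts of 0 lie close to these background shares. At the adjusted threshold this also holds for each gene list below of which 0 passed. The fitted log2 fold change was below 0 in 8 of the 9 and in 58.1% of all genes, and the sign of klf11a, klf13 and klf17 turned under other scalings or tests. The median was -0.17 over the 9 genes and -0.13 over all genes.

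**Figure D1:**
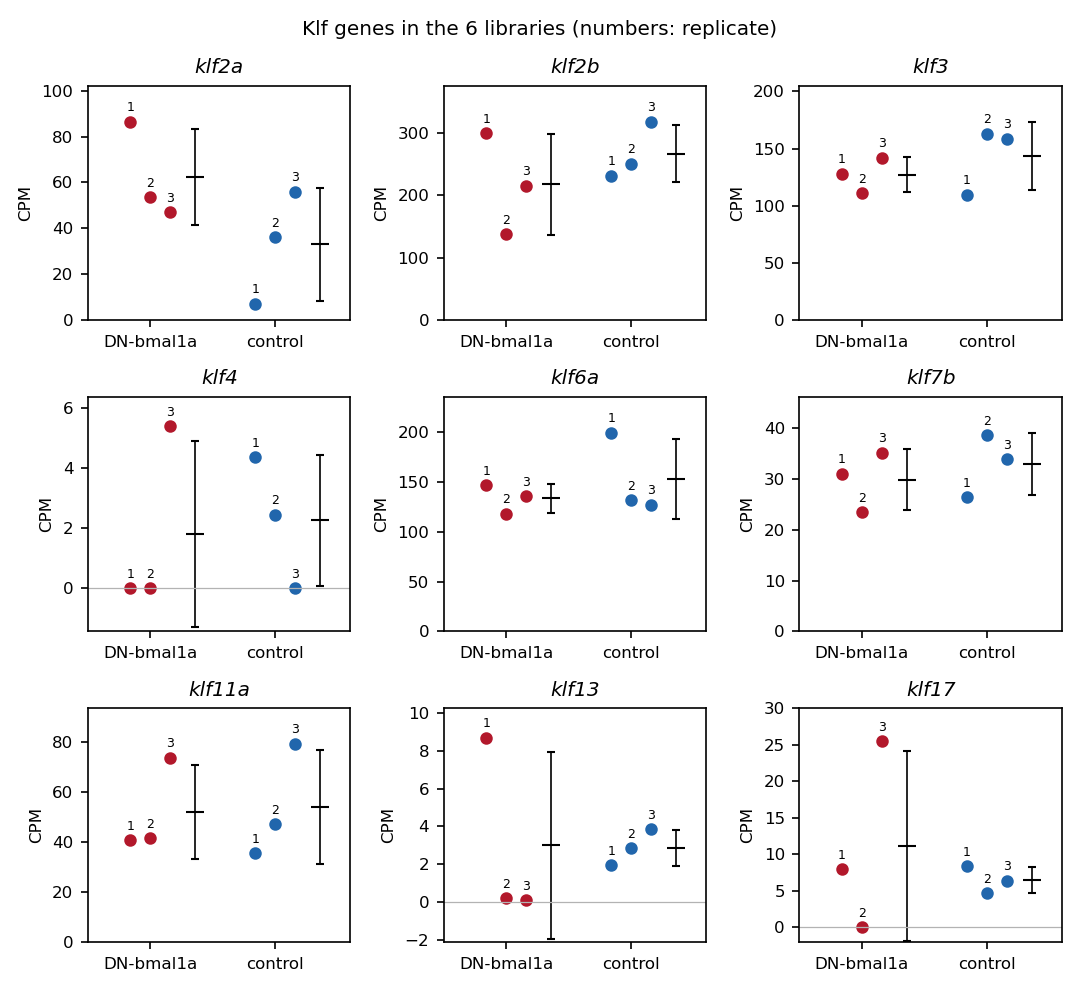
Each panel plots the level of a Klf gene in CPM (linear axis, own scale) in the 3 DN-bmal1a and the 3 control libraries, with the replicate number above each point and the group mean with its SD beside the points. The groups overlap in all 9 panels, klf2a has its low value of 7.27 CPM in control replicate 1, and klf4, klf13 and klf17 have libraries at or near 0.

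The values nonetheless differed in what they could show. For 5 genes, klf2b, klf3, klf6a, klf7b and klf11a, the 95% interval of the log2 fold change lay between -1 and 1, so that a change of 2-fold or more in either direction fell outside it. The lower ends for klf2b (-0.97) and klf7b (-0.96) were close to -1. These intervals are those of the main limma fit. Without its mean-variance trend, the unadjusted limma p of klf2b rose from 0.24 to 0.39 at the same estimate. A higher p at the same estimate means a wider interval, so the bound of -1 for klf2b rests on that trend. The unadjusted limma p also rose for klf3 (0.49 to 0.60), klf6a (0.48 to 0.60) and klf11a (0.9412 to 0.9477). For klf7b it fell, from 0.71 to 0.66. Intervals without the trend were not computed. For klf2a, klf4, klf13 and klf17 the interval reached past 1 or -1, so that these libraries could not tell such a change from none.

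klf2a, a flow-induced factor needed for heart valve formation in zebrafish, had the largest log2 fold change in size of the 9 with all 6 libraries and 1 CPM added, an order that did not hold with 0.1 CPM added, where it was 1.29 for klf2a, -1.45 for klf4 and -1.88 for klf13. klf2a had 86.4, 53.7 and 47.1 CPM in DN-bmal1a, from 3731, 1465 and 2650 reads. The control values were 7.27, 36.2 and 55.9 CPM (301, 1351 and 2813 reads). A single control library, replicate 1, was far below the other 5, and control replicate 3 was above the 2 lower DN-bmal1a libraries. The mean was 62.4 ± 21.1 CPM in DN-bmal1a and 33.1 ± 24.5 CPM in the controls (SD, n = 3 each). The log2 fold change was 1.24, with a 95% interval from -0.21 to 2.69 and a limma adjusted p of 0.516. The two-sided exact permutation test gave p = 0.3, where 3 libraries against 3 cannot go below 0.1. Without control replicate 1 the log2 fold change of klf2a was 0.41 (limma adjusted p = 0.749), and without control replicate 3, which left no overlap between the groups, it was 1.81 (limma adjusted p = 0.663). With 1 library fewer, groups separate more easily, and 24.7% of all genes did without control replicate 3.

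Its paralogue klf2b did not share the low value of control replicate 1. klf2b had 299, 138 and 215 CPM in DN-bmal1a and 231, 250 and 317 CPM in the controls. DN-bmal1a replicates 2 and 3 were below every control library, and DN-bmal1a replicate 1 was above 2 of them. The means were 217 ± 80.3 CPM in DN-bmal1a and 266 ± 45.2 CPM in the controls (SD, n = 3 each), or 81.7% of the control mean. Its log2 fold change was -0.35 (95% interval -0.97 to 0.27, limma adjusted p = 0.672). Without DN-bmal1a replicate 1 it was -0.61, with no overlap between the groups, as in 33.1% of all genes in that fit, and a limma adjusted p of 0.314, and without DN-bmal1a replicate 2 it was -0.056.

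klf4, the other flow-responsive member and a factor known for its part in reprogramming cells to pluripotency, was seen in 3 of the 6 libraries. It had 303 reads (5.39 CPM) in DN-bmal1a replicate 3 and no read in DN-bmal1a replicates 1 and 2. In the controls it had 180 reads (4.35 CPM) in replicate 1, 91 reads (2.44 CPM) in replicate 2 and no read in replicate 3. A count of 0 allows a level of up to 3 reads, or 0.0695 and 0.110 CPM in DN-bmal1a replicates 1 and 2 and 0.0597 CPM in control replicate 3. These limits cover the counting of reads only, and reads copied from the same molecule in amplification are not independent. Presence and absence of klf4 thus occurred within each group. The log2 fold change was -0.51, with an interval from -2.60 to 1.58 (limma adjusted p = 0.867, two-sided exact permutation p = 1).

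klf6a is the member with a described role in the niche, where zebrafish work placed it upstream of the chemokine ccl25b in CHT endothelium. It had 146, 118 and 136 CPM in DN-bmal1a and 199, 132 and 127 CPM in the controls, from 3216 to 8250 reads per library. Control replicate 1 was the highest of the 6, and the other 5 libraries lay between 118 and 146 CPM. The mean of klf6a was 133 ± 14.4 CPM in DN-bmal1a and 153 ± 40.3 CPM in the controls (SD, n = 3 each). Its log2 fold change was -0.17, with an interval from -0.69 to 0.35 (limma adjusted p = 0.813). ccl25b was not analysed here. Of the 11 niche genes looked for, 7 were listed and 0 passed the adjusted threshold. Their median log2 fold change was -0.82, and 3 of the 7 had an unadjusted limma p under 0.05, in each case with the lower mean in DN-bmal1a, where 8.12% of all genes did. These were cxcl12a and cxcl12b, which encode the chemokine that holds HSPCs in their niche, and sele, an adhesion molecule. cxcl12a had 24.5, 9.97 and 17.3 CPM in DN-bmal1a and 101, 94.6 and 108 CPM in the controls (limma adjusted p = 0.108). The paper, by its own edgeR test at the same nominal threshold, reports cxcl12a as lower. This list and the gene lists below were chosen with earlier results of these data known. Their shares beside those of all genes are a description and no test of the lists.

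klf3, known in mouse as a repressor that acts in blood and fat cells, was among the steadiest of the 9. It had 128, 111 and 142 CPM in DN-bmal1a and 110, 163 and 159 CPM in the controls, so that control replicate 1 was the lowest library and the other controls were the highest. Its log2 fold change was -0.16 (interval -0.67 to 0.35, limma adjusted p = 0.817). klf7b, whose mouse counterpart is known from neurons, had 31.0, 23.4 and 35.1 CPM in DN-bmal1a and 26.4, 38.5 and 33.8 CPM in the controls. The groups overlapped, with both ends of the range lower in DN-bmal1a, and the log2 fold change was -0.14 (interval -0.96 to 0.68, limma adjusted p = 0.906).

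klf11a, related to a mammalian repressor induced by TGF-beta, had a fitted change near 0. It had 40.7, 41.5 and 73.7 CPM in DN-bmal1a and 35.5, 47.1 and 79.3 CPM in the controls. In each group 1 library was well above the other 2, and the means were 52.0 ± 18.8 CPM in DN-bmal1a and 54.0 ± 22.7 CPM in the controls (SD, n = 3 each). The log2 fold change was -0.029 (interval -0.89 to 0.83, limma adjusted p = 0.983).

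klf13, a family member known from T cells and heart in mammals, was carried by 1 DN-bmal1a library. It had 8.71 CPM (376 reads) in DN-bmal1a replicate 1, and 0.183 and 0.0889 CPM (5 reads each) in DN-bmal1a replicates 2 and 3. Control values were 1.93, 2.84 and 3.84 CPM (80, 106 and 193 reads). All 3 controls thus lay between the highest DN-bmal1a library and the 2 low ones. Group means hid this, at 2.99 ± 4.95 CPM in DN-bmal1a and 2.87 ± 0.953 CPM in the controls (SD, n = 3 each). The log2 fold change was -0.71 (interval -2.75 to 1.34, limma adjusted p = 0.801). Without DN-bmal1a replicate 1 it was -1.74, with no overlap, as in 33.1% of all genes in that fit, and a limma adjusted p of 0.286. With 5 reads in each remaining DN-bmal1a library, the size of that value is set in part by the 1 CPM added before the logarithm.

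klf17 is the gene first named biklf in zebrafish, after its expression in the blood islands, and it is also a gene of the hatching gland. It had 7.95, 0 and 25.5 CPM in DN-bmal1a, from 343, 0 and 1432 reads. The controls were closer together, at 8.36, 4.68 and 6.36 CPM (346, 175 and 320 reads). DN-bmal1a replicate 3 was the highest of the 6 libraries and DN-bmal1a replicate 2 the lowest, where a count of 0 allows up to 0.110 CPM. The log2 fold change was -0.24 (interval -2.75 to 2.26, limma adjusted p = 0.946). It was 1.07 without DN-bmal1a replicate 2 and -1.29 without DN-bmal1a replicate 3, so that its direction was set by which library was included. The erythroid sums given above ran in the same order as klf17 over the 3 controls, and both were higher in DN-bmal1a replicate 3 than in replicate 1. Across the groups this order did not hold. DN-bmal1a replicate 1 had a higher erythroid sum than control replicate 1 (3032 against 2398 CPM) but less klf17 (7.95 against 8.36 CPM). DN-bmal1a replicate 2, with an erythroid sum of 4470 CPM, held no klf17 read. It also held none of 17.2% of all genes, a share over genes of every level. The part of erythroid RNA in the klf17 values was not tested. Of 9 hatching gland markers looked for, the 3 that were listed, cd63, xbp1 and agr2, are also expressed in other secretory cells.

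**Figure D2:**
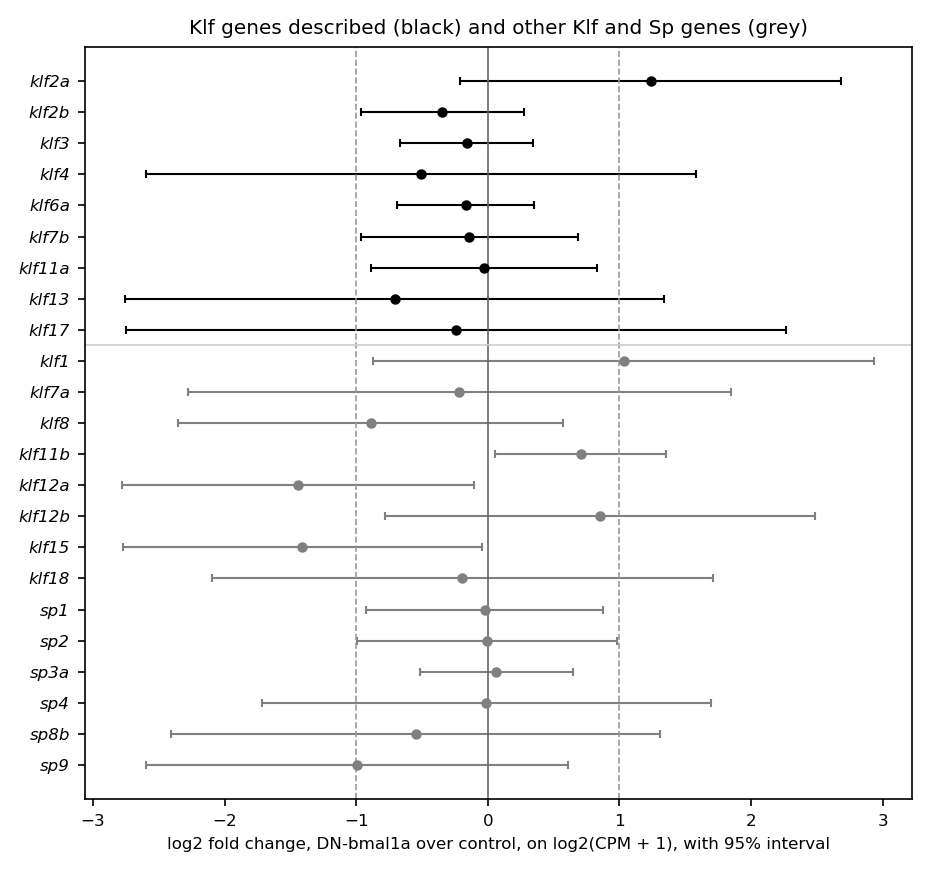
The plot gives the log2 fold change of DN-bmal1a over control on log2(CPM + 1), with its 95% limma interval, for the 9 Klf genes (black) and the 14 other Klf and Sp genes (grey), with dashed lines at -1 and 1. All 9 black intervals include 0, and those of klf2b, klf3, klf6a, klf7b and klf11a lie between the dashed lines.

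Replicate spread differed between these genes. The SD within groups on log2(CPM + 1) was 0.26 for klf3, 0.28 for klf6a and 0.28 for klf7b, where the 5171 genes with a mean of at least 20 CPM had a median of 0.38 and quartiles of 0.25 and 0.57. It was 0.43 for klf2b and 0.53 for klf11a, above that median and below the upper quartile. klf2a, with 1.08, stood above the upper quartile. The 3 genes with a mean under 10 CPM had 1.41 (klf4), 1.29 (klf13) and 1.72 (klf17). The 3222 genes with a mean from 1 to 10 CPM had a median of 1.11 and quartiles of 0.77 and 1.39. klf4 and klf17 thus stood above the upper quartile of that range, and klf13 below it. A library without any read was common at that level, and occurred in 65.9% of those 3222 genes, compared with 0.851% of the 5171 genes above. klf4 and klf17 were like most genes of that range in having at least 1 empty library. klf4 had reads in 3 of the 6 libraries and klf17 in 5. DN-bmal1a replicate 2 was the lowest of its group in 5 of the 9 Klf genes and the highest in none, a tie at 0 for klf4 left aside. Control replicate 1 was the lowest of its group in 6 of the 9 and the highest in 3. On log2(CPM + 1), the median deviation of DN-bmal1a replicate 2 from its group mean was -0.32 over the 9 and -0.071 over all genes. For control replicate 1 it was -0.29 over the 9 and -0.029 over all genes. Over all genes, each of these libraries also had the lowest median deviation of its group.

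**Figure D3:**
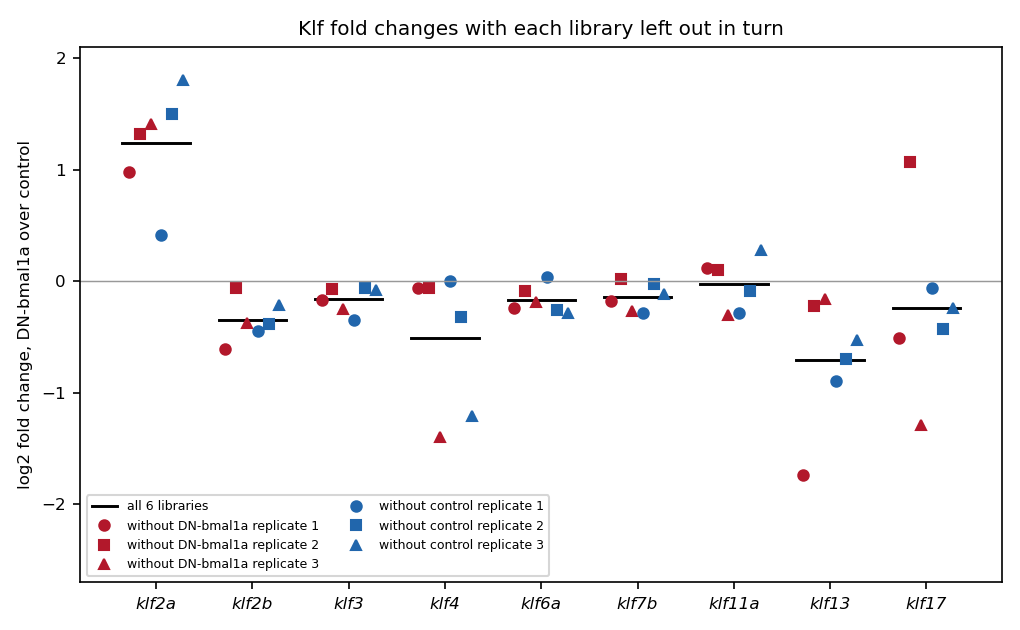
Each symbol is the log2 fold change of DN-bmal1a over control with 1 library left out (red, a DN-bmal1a library; blue, a control library), and each black line is the value with all 6 libraries. klf2a stays above 0 but drops to 0.41 without control replicate 1, klf2b and klf3 stay below 0, and klf17 spans from -1.29 to 1.07.

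The rest of the family was read at the same adjusted threshold. Of 28 other Klf and Sp genes looked for, 14 were listed. Of these, 0 passed, where 0.00977% of all genes did, and the median log2 fold change was -0.11. At an unadjusted limma p under 0.05, 1 of the 14 was higher and 2 were lower in DN-bmal1a, where 3.1% and 8.12% of all genes were. klf12a, whose mammalian counterpart is a repressor, had 5.0, 5.02 and 11.8 CPM in DN-bmal1a and 17.2, 21.0 and 22.2 CPM in the controls. Every DN-bmal1a library was below every control library, and the log2 fold change was -1.44 (interval -2.78 to -0.11, limma adjusted p = 0.414). klf15, which in mammals is induced by glucocorticoids and follows the circadian clock in several tissues, had 25.9, 13.2 and 4.78 CPM in DN-bmal1a and 29.0, 28.7 and 45.6 CPM in the controls. Its groups did not overlap either, as in the 10.7% of all genes with every DN-bmal1a library lower, although DN-bmal1a replicate 1 was close to the 2 lower controls, and its log2 fold change was -1.41 (limma adjusted p = 0.434). Without DN-bmal1a replicate 3 it was -0.82.

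klf11b, the paralogue of klf11a, was the 1 of the 14 with an unadjusted limma p under 0.05 and the higher mean in DN-bmal1a. It had 97.3, 160 and 204 CPM in DN-bmal1a and 82.3, 81.2 and 108 CPM in the controls, and control replicate 3 lay above DN-bmal1a replicate 1. The log2 fold change was 0.70 (interval 0.053 to 1.36, limma adjusted p = 0.414), beside -0.029 for klf11a, and the difference between these paralogues was not tested. klf12a, klf15 and klf11b passed the adjusted threshold in none of the alternatives run.

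The genes around Klf2 and Klf4 in the flow pathway were taken from fixed lists. Of 15 genes of the MEKK3, MEK5, ERK5 and MEF2 cascade and the histone deacetylases that bind MEF2, 8 were listed, and 0 passed the adjusted threshold or an unadjusted limma p under 0.05. Their median log2 fold change was 0.014. map2k5, which encodes MEK5, had the lowest p of these, with 7.30, 5.39 and 8.02 CPM in DN-bmal1a and 0, 7.50 and 3.10 CPM in the controls (limma adjusted p = 0.626). For the MEF2 genes, mef2cb had a log2 fold change of -0.45 and mef2ca of -0.24, with overlapping groups in both.

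In the Heg1-CCM list, 6 of 8 genes were listed, 0 passed the adjusted threshold, and the median log2 fold change was -0.25. rasip1, which encodes an effector of the GTPase Rap1 at EC junctions, was the 1 gene of the 6 with an unadjusted limma p under 0.05, lower in DN-bmal1a, where 8.12% of all genes were. It had 560, 361 and 569 CPM in DN-bmal1a and 818, 753 and 892 CPM in the controls, without overlap, as in the 10.7% of all genes with every DN-bmal1a library lower (log2 fold change -0.75, limma adjusted p = 0.268). krit1, a core gene of the complex, had 17.0, 0.0733 and 6.42 CPM in DN-bmal1a and 7.15, 16.9 and 30.5 CPM in the controls, which overlapped.

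Genes that take part in sensing flow at the EC surface had a median log2 fold change of -0.69, and 5 of the 10 listed had an unadjusted limma p under 0.05 with the lower mean in DN-bmal1a, where 8.12% of all genes did. None of the 10 passed the adjusted threshold. kdrl and flt4, both VEGF receptors, had log2 fold changes of -0.96 and -1.12, and cdh5, the cadherin of EC junctions, one of -0.69. All 3 are also endothelial markers, as are tek and pecam1 of the 10, and so are themselves part of the lower endothelial marker sum given above. Of the 5 with such a p, plxnd1 alone is not on that marker list. Of 23 genes linked to flow or to Klf2 in endothelium, 15 were listed and 0 passed. Their median was -0.55, and 2 of the 15, egfl7 and edn1, had an unadjusted limma p under 0.05, both with the lower mean in DN-bmal1a, where 8.12% of all genes lay. egfl7, which hosts the flow-dependent miR-126 in an intron, had 136, 97.6 and 141 CPM in DN-bmal1a and 266, 217 and 235 CPM in the controls, with no overlap (log2 fold change -0.95, limma adjusted p = 0.223). It is also 1 of the 14 endothelial markers, whose sum was lower in DN-bmal1a. edn1, which encodes a vasoconstrictor peptide, had 0, 0 and 0.746 CPM in DN-bmal1a and 1.62, 1.5 and 5.13 CPM in the controls.

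klf2a, klf2b, klf4 and klf6a can also be read beside the immediate early genes. Of 30 looked for, 23 were listed, 10 of them had an unadjusted limma p under 0.05 with the lower mean in DN-bmal1a, where 8.12% of all genes did, and the median log2 fold change was -0.86. The adjusted threshold was passed by 1 of the 23, where 0.00977% of all genes passed it. This gene, nr4a1, an orphan nuclear receptor, had 87.5, 86.5 and 68.7 CPM in DN-bmal1a and 495, 586 and 336 CPM in the controls. The paper also reports nr4a1 as lower, by its own edgeR test at the same nominal threshold. In that test egr1, fosab, fosl2 and socs3b of this list were reported as lower too. This list was chosen with such results known. With 1 CPM added, the log2 fold changes of these Klf genes were 1.24 for klf2a, -0.35 for klf2b, -0.51 for klf4 and -0.17 for klf6a. All were above that median, and no test was made of the difference. The intervals of klf2b (-0.97 to 0.27) and klf4 (-2.60 to 1.58) include -0.86, while those of klf2a and klf6a lie above it. Single immediate early genes ran from -2.72 to 0.36, a range that holds klf2b, klf4 and klf6a. An interval set against the median alone therefore does not tell a Klf gene apart from that list. With 0.1 CPM added, klf4 was -1.45. Glucocorticoid-responsive genes were listed in 7 of 9 cases, klf15 among them, and 0 passed. All 7 had a fitted log2 fold change below 0, as did 58.1% of all genes, and their median was -0.81. sgk1, a kinase gene, had 175, 241 and 248 CPM in DN-bmal1a and 321, 303 and 344 CPM in the controls. Its groups did not overlap, as in the 10.7% of all genes with every DN-bmal1a library lower.

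**Figure D4:**
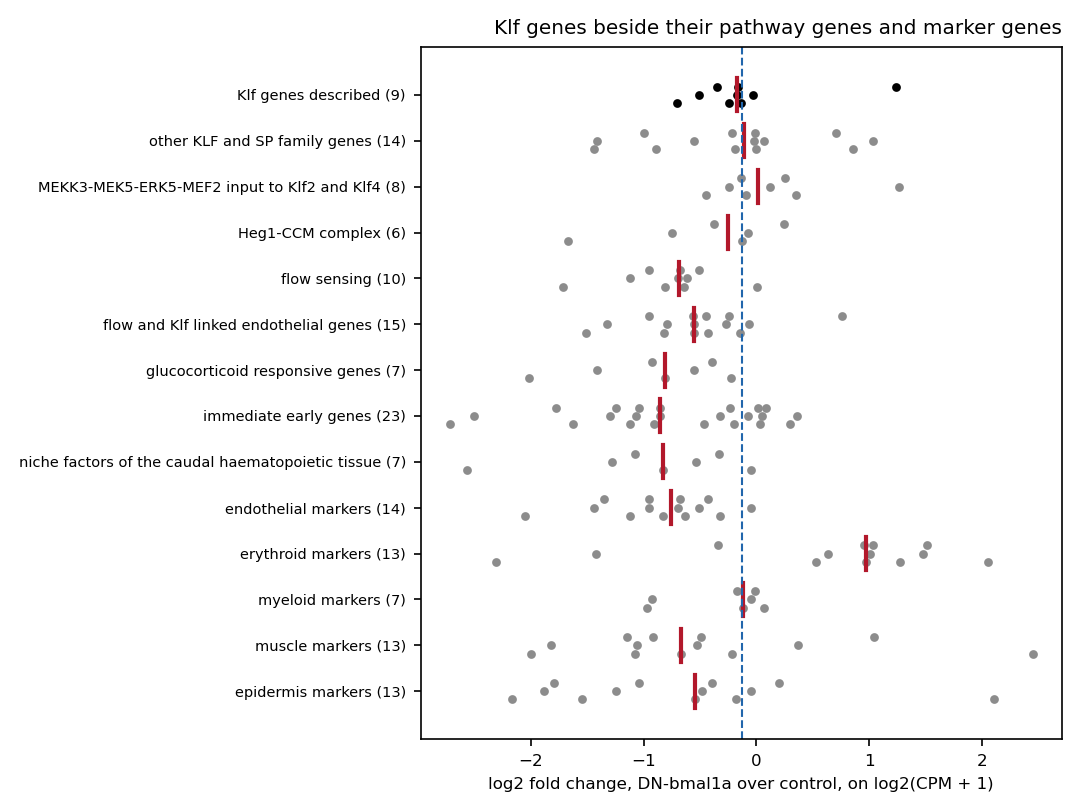
Each point is the log2 fold change of DN-bmal1a over control of a gene, by list, with the number listed in brackets, the median as a red bar and the median of all genes (-0.13) as a dashed line. The median of the Klf genes (-0.17) lies near that line, and that of the erythroid markers (0.97) lies higher. Those of the flow sensing, immediate early, endothelial, muscle and epidermis lists are among those that lie lower.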

How the data were processed

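RNA-seq was analysed in 6 libraries, 3 DN-bmal1a and 3 control, grouped by the sample labels. According to the submitters' processing notes, the authors aligned reads by STAR 2.7.0f, counted them per gene by HTSeq 0.9.1 and normalised them with edgeR (version 3.38.4 in the labels, another in the paper). The labels name GRCz11 and the paper danRer10, so no coordinates are given. The authors deposited the normalised signal (CPM of an effective library size) for 10232 genes, each with reads in at least 3 libraries. How genes were filtered is not given in the sources used here. CPM had been assumed, but the columns do not sum to the full scale, and the test on log2(CPM + 1) was kept. Columns were matched to samples by title, since the column names of DN-bmal1a libraries also occur as library names of controls. All values above 0 (100%, tolerance 0.01 reads) were whole multiples of a step per library, which gave the reads back. Strand was not stated, so reads of overlapping genes cannot be told apart. The treatment of reads shared by paralogues such as klf2a and klf2b is not given in the sources used here. Transcript lengths were not used, so levels were not ranked between genes.

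The main test was limma 3.58.1 in R 4.3.3, run with a mean-variance trend over all 10232 genes on log2(CPM + 1), and the added 1 understates changes of low genes. Single members also had an exact permutation test over 20 splits. The fit was tested on simulated data, a check of the code that does not speak to the spread between these libraries. Alternatives were no trend, weights per library, a pseudocount of 0.1 or 10, removal of low genes, rescaling to the same sum, quantile normalization, a replicate block, each library left out, no fold-change threshold, and edgeR 4.0.16 and DESeq2 1.42.0 on the recovered reads. The members and lists were chosen with earlier results of these data known. All 9 listed members were named. From other lists, the genes called or, with none called, up to 3 with the lowest p could be named. Besides these were arntl1a, kdrl and the 3 genes most like klf2a and klf4. Further genes were named where lists shared them, where the paper reports them or where they made up most of a sum. Marker lists are given mainly as sums. No pair of replicates agreed within the error of counting reads. The labels number the samples only, so p-values measure the spread between these libraries. RefSeq names of another assembly were used for symbols only, and all 9 members matched. RefSeq also lists klf4 as an older name of klf17, and both are genes of their own in the table.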

Additional observations from a re-analysis of the deposited data

How the results depend on the processing

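The count of Klf genes called was 0 under all alternatives run, and the lowest adjusted p of any of the 9, that of klf13 without DN-bmal1a replicate 1, was 0.286. The number of genes called among all genes, 1 in the main limma test, was 187 with DESeq2, 38 with edgeR's exact test, 22 with array weights, 7 with no trend in eBayes and 0 under edgeR's quasi-likelihood model (804 had an unadjusted p under 0.05), and it ranged from 0 to 1 with a library left out. Leaving out a library gave 0 to 2 Klf genes at an unadjusted p under 0.05 and 0 to 2 without overlap (klf2b and klf13, klf3, or klf2a), where 7.37% to 15.0% of all genes had such a p and 24.5% to 33.1% did not overlap. Same-numbered libraries were not treated as pairs in the main test, and their deviations correlated by -0.074, -0.011 and 0.002. The labels do not say whether such libraries were collected together, and these correlations cannot settle it. With the replicate block, limma called 1 gene and edgeR's quasi-likelihood model 0 (572 had an unadjusted p under 0.05), and neither called a Klf gene.

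Of 169 alternative log2 fold changes of the Klf genes, 149 kept their direction, 20 turned in sign and 0 passed the threshold. klf2a was under 1 with array weights (0.84), a pseudocount of 10 (0.91), both edgeR tests (0.91), DESeq2 (0.94) and without DN-bmal1a replicate 1 (0.98) or control replicate 1 (0.41). klf11a was 0.032 when rescaled to the same sum, 0.039 after quantile normalization and 0.13 with array weights. klf13 was 0.40 after quantile normalization, 0.062 with edgeR's quasi-likelihood and exact tests and 0.073 with DESeq2. klf17 was 0.18 with a pseudocount of 10, 0.14 after quantile normalization, 0.68 with array weights, 0.78 with both edgeR tests and 0.80 with DESeq2. With each library left out, klf4 ranged from -1.40 to 0.0012, klf6a from -0.28 to 0.037, klf7b from -0.29 to 0.019, klf11a from -0.30 to 0.28 and klf17 from -1.29 to 1.07. Quantile normalization moved the median of all genes to 0.038, from -0.13. The cause was not tested. With the replicate block in edgeR, klf4 was -7.23 and klf13 -3.04. With a mean under 5 CPM, klf4 and klf13 gave no value under that filter. klf4, klf13 and klf17 had between 0 and 1432 reads per library, and between replicates of a group 176 to 1206 genes had at least 100 reads in 1 library and none in the other, a spread that counting error does not cover.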

Other observations

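The genes whose values ran closest to those of klf2a and klf4 over the 6 libraries were found by the root mean square difference of log2(CPM + 1), each gene centred on its own mean, among 9832 genes with a mean of at least 1 CPM. Closest to klf2a was eya1, a transcriptional coactivator gene, at 0.18 on the log2 scale, where klf2a itself varied by 1.08 about its mean. eya1 had 31.7, 22.9 and 15.7 CPM in DN-bmal1a and 3.21, 14.9 and 23.7 CPM in the controls, and so shared the low control replicate 1. Next came zgc:162780 (0.26) and zgc:101716 (0.28), both without reads in control replicate 1. Closest to klf4 were zgc:172339 (0.034), elovl4a (0.10), a fatty acid elongase gene, and zgc:158689 (0.15), which were at 0, or under 0.05 CPM, in the libraries where klf4 had no read. Apart from klf4, 41 listed genes had reads in the same 3 libraries and in no other, and 764 genes besides klf17 lacked reads in DN-bmal1a replicate 2 and had them in the other 5 libraries. These likenesses describe 6 libraries and were picked from many genes.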
